A study of Mus musculus with 24 samples.

Results

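The genes described here are Cdkn1c and the other CDK inhibitor genes Cdkn1a, Cdkn1b, Cdkn2a, Cdkn2c and Cdkn2d. They are the 6 rows with these symbols among 54532 genes of an RNA sequencing table of mouse macrophages. Cdkn1c was chosen by its measured levels, its high FPKM (expression scaled for gene length and library depth) in treated wild-type cells of these data, so its values in any comparison with wild-type libraries are given as a description with no test. The other 5 were listed as members of the same families, with earlier results of these data known, which their p-values do not take into account. Cdkn2b, of the same family as Cdkn2a, was not listed and is described as its neighbour. All 6 passed the filter on low values, which asked for 4 of the 24 libraries to reach an FPKM of 1. For Cdkn1c, 10 of the 16 libraries outside the treated WT groups reached it, so the filter did not depend on the groups where it was high.

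The cells were bone marrow derived macrophages of C57BL/6 mice, cultured for 7 days in medium conditioned by L929 fibroblasts, a source of macrophage growth factor. They were WT or Trem2(-/-), called KO below, which lack Trem2, a lipid receptor of myeloid cells. Each genotype was untreated, given S1P (sphingosine-1-phosphate, a signalling lipid) at 500 nM, or given ACM, the culture medium of apoptotic AML12 hepatocytes, for 24 hours, with 4 libraries in each of the 6 groups. The AML12 cells had been killed with palmitate at 800 µM and then moved to fresh medium with no serum to make the ACM. All 6 groups shared the strain and the L929 medium, and none received medium of living AML12 cells. The knockout allele, and what the untreated cells received in place of a treatment, were not given in the labels. No label ties a library to an animal or culture, so p-values measure the spread between libraries, which may be technical. Library numbers run in a separate block for each group, so any order of preparation cannot be told apart from genotype or treatment.

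CDK inhibitors bind the cyclin-dependent kinases that drive the cell cycle and hold them inactive. The INK4 proteins, made by Cdkn2a, Cdkn2b, Cdkn2c and Cdkn2d, bind Cdk4 and Cdk6 and block the D cyclins, which keeps RB on E2F and the S phase genes off. The CIP/KIP proteins p21 (Cdkn1a), p27 (Cdkn1b) and p57 (Cdkn1c) act on cyclin E, A and B complexes as well. Cdkn1a is the classical p53 target, Cdkn1b is controlled largely through protein breakdown, and Cdkn1c is an imprinted gene read from the maternal copy and known for holding stem cells in quiescence. In macrophages, growth factor drives division and p21 accompanies differentiation and activation.

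Promoter sequences were looked up in RefSeq (GRCm38.p6), where 5 of the 6 genes had entries. Those shown are the Cdkn1a promoter that holds a p53 motif, since p53 targets are examined below, and both promoters of Cdkn2a, since its gene-level value sums transcripts from 2 start sites that encode p19Arf (the distal start, site 1) and p16Ink4a (site 2). Each runs 5′ to 3′ on the gene's strand and stops where annotated exon begins. Capitals mark the letters of a motif on either strand: GGGCGG (GC box), TTTNNCGC (E2F type) or CATGNNNNNNCATG (paired p53 core), and positions below count from the start site.
Cdkn1a start site 1, chr17:29090729-29090975, + strand: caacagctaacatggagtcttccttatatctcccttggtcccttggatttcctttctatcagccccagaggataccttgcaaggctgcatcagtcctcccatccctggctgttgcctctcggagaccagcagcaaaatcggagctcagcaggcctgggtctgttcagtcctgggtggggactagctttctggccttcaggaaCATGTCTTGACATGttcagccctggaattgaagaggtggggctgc
Cdkn2a start site 1, chr4:89294654-89294869, - strand: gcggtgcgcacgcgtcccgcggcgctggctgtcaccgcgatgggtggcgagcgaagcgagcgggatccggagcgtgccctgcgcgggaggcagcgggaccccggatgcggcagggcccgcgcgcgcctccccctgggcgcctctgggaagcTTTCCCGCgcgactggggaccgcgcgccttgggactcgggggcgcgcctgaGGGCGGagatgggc
Cdkn2a start site 2, chr4:89282193-89282442, - strand: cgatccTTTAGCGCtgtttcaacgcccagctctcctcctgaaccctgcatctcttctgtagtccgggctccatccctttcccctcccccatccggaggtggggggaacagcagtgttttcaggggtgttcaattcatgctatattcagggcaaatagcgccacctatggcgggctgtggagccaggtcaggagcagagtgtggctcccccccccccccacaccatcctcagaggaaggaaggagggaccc
The p53 core begins at -48 of Cdkn1a start site 1, and 0.49% of 32851 mouse promoters of the same 250 bases hold it. The E2F type motif, held by 4.28% of them, was found at -99 of Cdkn2a start site 1 and at -244 of start site 2. Cdkn2a start site 1 also had 2 GC boxes, 1 of them, at -48, in the bases printed. Cdkn2c site 1 and Cdkn2d had 3 GC boxes each, a motif held by 32.7% of promoters, and no E2F type match in this window. Cdkn1a start site 2, which is not printed, had 2 GC boxes and no p53 core. Cdkn1b had 1 GC box and 2 CCAAT boxes (CCAAT, held by 33.8%), and none of the 5 genes had TATAAA (12.4%). These are letter matches and do not show that a factor was bound.

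Each of the 8 macrophage markers reached an FPKM of 1 in at least 1 library, and the list summed to at least 4070 in every library. From the FPKM values 16.6 to 25.2 M reads (M, reads in units of 1e+06) per library were recovered. Trem2 checks the genotype labels: it was 74.5 to 109 FPKM in the 12 WT libraries and 35.7 to 40.7 in 11 of the 12 KO libraries, so the KO libraries still held Trem2 reads. The library labelled KO untreated 81 had 79.6, inside the WT untreated range of 74.5 to 82.7. Comparisons with KO untreated libraries are therefore given with and without it. Summed FPKM of the macrophage list was 7240 to 7470 in WT untreated, 5780 to 6510 in WT ACM and 4150 to 5740 in WT S1P libraries. It was 4070 to 4510 in KO untreated libraries (5980 in KO untreated 81), 4270 to 4640 in KO ACM and 4370 to 4560 in KO S1P. Markers of other cells were low. The 10 hepatocyte markers summed to 1.14 to 3.57, with Serpina1a at 0 and 9 of the 10, all but Afp, under an FPKM of 1 in every library. The 9 fibroblast markers summed to at most 0.162 with Lum at 0, and the 6 stem or progenitor markers to 1.32 to 5.37. The lymphoid list reached at most 0.302 and the mast or erythroid list at most 0.134. The endothelial list was 14.1 to 18.2 in all groups. Of its 7 genes 5, all but Kdr and Vwf, were under an FPKM of 1 in every library, with Cldn5 at 0. The neutrophil list was 5.21 to 10.5 in WT and 14.2 to 21.1 in KO libraries, except 5.77 in KO untreated 81.

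Cdkn1c transcript stood at the bottom of the expressed range in untreated WT macrophages and near the top after S1P. Cdkn1c (ENSMUSG00000037664, chromosome 7, 143458339 to 143461050, minus strand, GRCm38) encodes the CIP/KIP inhibitor p57. The WT untreated libraries 1 to 4 had FPKM values of 0.999, 1.61, 1.31 and 1.34. The WT ACM libraries 19 to 22 had 12.2, 13.1, 11.6 and 12.2. The WT S1P libraries 25 to 28 had 63.4, 84.4, 115 and 111. No WT group overlapped another, and the ACM libraries lay close together while the S1P libraries spread widely. Mean FPKM was 1.32 ± 0.252, 12.3 ± 0.607 and 93.3 ± 24.1 (SD, n = 4 each), so that ACM was 9.32 times and S1P 70.9 times the untreated mean, and S1P 7.61 times ACM. On the log2(FPKM + 1) scale the differences were 2.52 and 5.32, where adding 1 shrinks the change of a gene as low as Cdkn1c was untreated. With a pseudocount of 0.1 they were 3.14 and 6.02. These values chose the gene and carry no test.

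Expressed as a rank among the 11377 tested genes, Cdkn1c had 10.5% of genes below it in WT untreated cells, 65.0% under ACM and 95.8% under S1P. The recovered reads behind these values were 37 to 65 per WT untreated library, 442 to 525 under ACM and 2928 to 4617 under S1P. The antisense gene Gm44732 overlaps Cdkn1c, and reads of both strands cannot be told apart here; its own FPKM was at most 0.0799. In RNA from whole cultures, a higher level in each cell and a larger share of cells with the transcript cannot be told apart. The macrophage marker sum in WT S1P libraries 25 to 28 was 5740, 5050, 4340 and 4150, so the libraries highest in Cdkn1c, 27 and 28, were the lowest in these markers. The hepatocyte list also reached 2.81 to 3.57 in WT S1P against 1.23 to 1.75 in WT untreated libraries, with 9 of its 10 genes, all but Afp, under an FPKM of 1. The part of either in the Cdkn1c values was not tested. KO ACM and KO S1P libraries, with marker sums of 4270 to 4640, had Cdkn1c values of 0.757 to 1.49. Marker sums in KO cells were low untreated as well, at 4070 to 4510 (5980 in KO untreated 81).

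**Figure D1:**
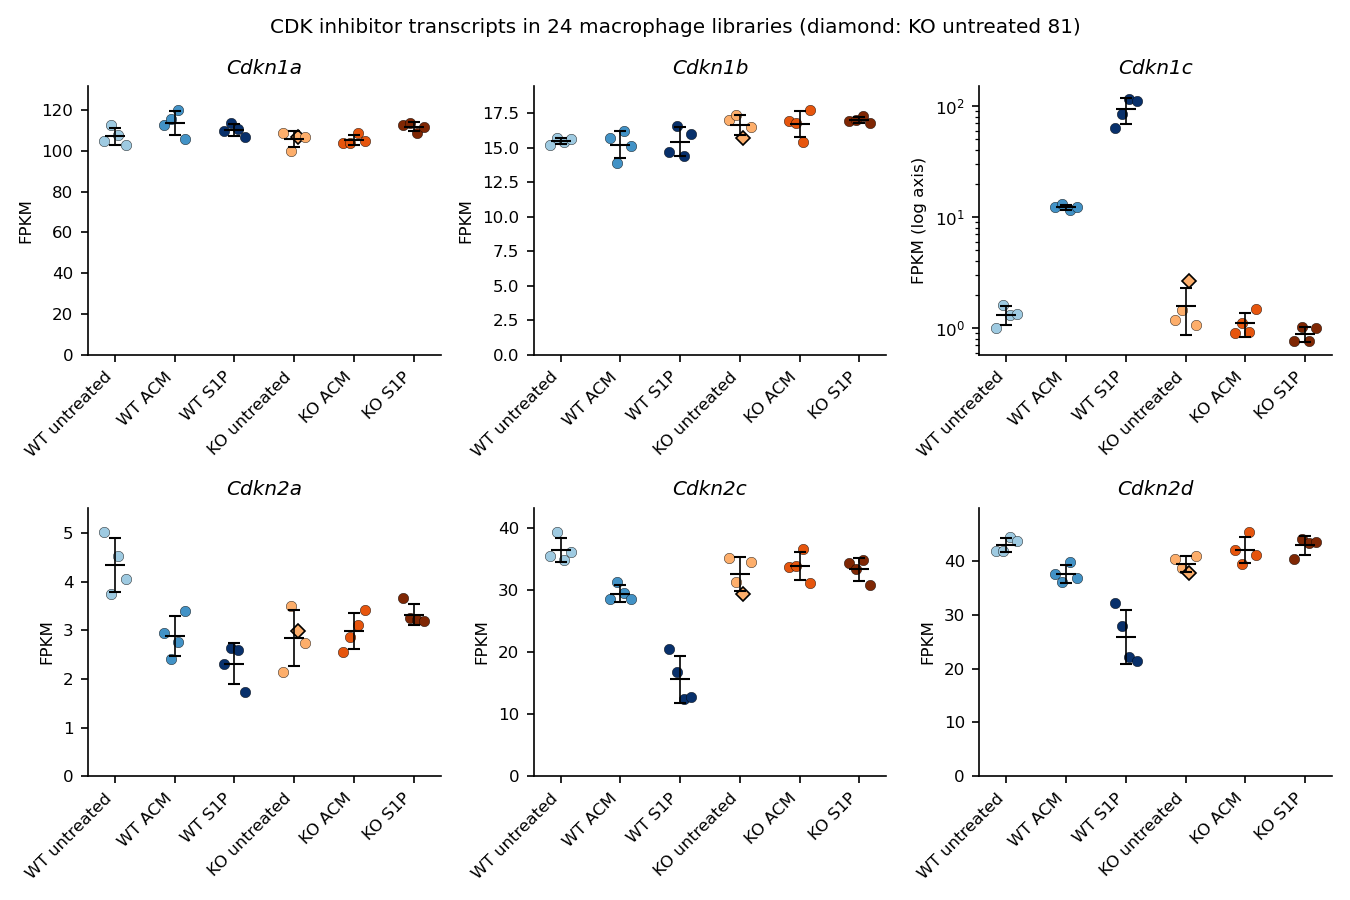
FPKM of the 6 CDK inhibitor genes in each of 24 libraries, by group, with 1 point per library and black bars for the mean and SD (n = 4). The Cdkn1c axis is logarithmic and the others start at 0. Cdkn1c runs from 0.999 to 115 in WT libraries and from 0.757 to 2.63 in KO libraries, Cdkn2c and Cdkn2d are lowest in WT S1P, and Cdkn1a and Cdkn1b vary little.

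In KO macrophages Cdkn1c was at 0.757 to 2.63 FPKM in all 12 libraries. KO untreated libraries 79 to 82 had FPKM values of 1.19, 1.45, 2.63 and 1.06, the highest being KO untreated 81. KO ACM libraries 85 to 88 had 0.904, 1.11, 0.911 and 1.49, and KO S1P libraries 91 to 94 had 0.768, 1.03, 0.757 and 0.992. The KO S1P libraries were all below the KO untreated ones, and the KO ACM libraries overlapped them. The log2 difference from KO untreated was -0.27 ± 0.16 (SE) for ACM (limma adjusted p = 0.671, exact permutation p = 0.257). For S1P it was -0.42 ± 0.16 (adjusted p = 0.375), with an exact permutation p = 0.0286, the smallest that 70 arrangements can give. Without KO untreated 81 the differences were -0.09 ± 0.15 and -0.24 ± 0.15 (adjusted p = 0.938 and 0.673, exact permutation p = 0.543 and 0.0571), so the size in both comparisons depends on that library. S1P against ACM within KO gave -0.15 ± 0.16 (adjusted p = 0.929). The 95% intervals of the KO differences were -0.60 to 0.07 for ACM and -0.75 to -0.08 for S1P, on 31 to 89 reads per library, beside the WT values of 2.52 and 5.32. Mean FPKM was 11.1 times higher in WT than KO cells under ACM and 105 times higher under S1P, a description that follows from the choice of the gene. Sorted by mean, the order was WT S1P, WT ACM, KO untreated (1.58 ± 0.719, or 1.23 ± 0.198 with n = 3 without KO untreated 81), WT untreated, KO ACM (1.1 ± 0.275) and KO S1P (0.888 ± 0.146), and neighbours among the last 4 lay within their spread.

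Of the INK4 genes, Cdkn2c fell most in WT cells given S1P; with ACM the larger fall was that of Cdkn2a. Cdkn2c (ENSMUSG00000028551, chromosome 4, 109660876 to 109667189, minus strand) encodes p18Ink4c, an inhibitor of Cdk4 and Cdk6. Its FPKM was 35.5, 39.4, 34.9 and 36.1 in WT untreated libraries, 28.5, 31.3, 29.5 and 28.5 under ACM, and 20.5, 16.8, 12.4 and 12.8 under S1P. The 3 WT groups did not overlap, and within S1P the libraries 27 and 28, highest in Cdkn1c, were the lowest in Cdkn2c. The log2 difference was -1.20 ± 0.10 for S1P (limma adjusted p = 3.83e-09, exact permutation p = 0.0286) and -0.90 ± 0.10 for S1P against ACM (adjusted p = 1e-06). The ACM difference of -0.30 ± 0.10 passed narrowly (adjusted p = 0.0413) and was not called when WT untreated 1, 2, 3 or 4 or WT ACM 19, 21 or 22 was left out (adjusted p from 0.0555 to 0.107).

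The 12 KO libraries held Cdkn2c between 29.4 and 36.7 FPKM, with group means of 32.6 ± 2.72 untreated, 33.9 ± 2.23 under ACM and 33.4 ± 1.79 under S1P (SD, n = 4). Neither treatment was called in KO cells (0.06 ± 0.10 and 0.04 ± 0.10, adjusted p = 0.913 and 0.945; without KO untreated 81, 0.01 and -0.01). Under S1P, KO cells had 1.08 ± 0.10 log2 units more Cdkn2c than WT cells (adjusted p = 1.71e-08), and the S1P difference itself differed between genotypes by 1.24 ± 0.14 (interaction, adjusted p = 9.08e-07; 1.19 without KO untreated 81). The corresponding ACM interaction, 0.35 ± 0.14, was not called (adjusted p = 0.0991). It was called with TPM scaling (adjusted p = 0.027), limma voom (0.0194), only the groups compared (0.00807) and without WT S1P 25 (0.0223). In order of mean level WT untreated (36.4 ± 2.02) was followed by the 3 KO groups, which lay within each other's spread, then WT ACM (29.4 ± 1.35) and WT S1P (15.6 ± 3.83). Neither KO against WT untreated (-0.16 ± 0.10, adjusted p = 0.463) nor KO against WT under ACM (0.19 ± 0.10, adjusted p = 0.17) was called, and the second was called with limma voom (adjusted p = 0.0316).

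Cdkn2d showed the same order of WT groups on a smaller scale. Cdkn2d (ENSMUSG00000096472, chromosome 9, 21288410 to 21291407, minus strand) encodes p19Ink4d, an INK4 inhibitor whose transcript rises and falls with the cell cycle. WT untreated libraries had FPKM values of 41.9, 41.8, 44.4 and 43.8, WT ACM 37.5, 36.0, 39.8 and 36.9, and WT S1P 32.1, 27.9, 22.1 and 21.4. Again no WT group overlapped another, and libraries 27 and 28 were the lowest. Cdkn2d fell with S1P, with a log2 difference of -0.73 ± 0.08 against untreated (adjusted p = 1.65e-07) and of -0.54 ± 0.08 against ACM (adjusted p = 2.27e-05). The ACM difference was -0.19 ± 0.08 and not called (adjusted p = 0.1), although it was called when WT S1P 25 was left out (adjusted p = 0.0242) and with TPM scaling (adjusted p = 0.0145), quantile normalization (0.0441), limma voom on recovered reads (0.0169) and only the groups compared (0.00408).

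KO libraries had Cdkn2d between 37.7 and 45.4 FPKM, with means of 39.4 ± 1.5, 42.0 ± 2.49 and 42.9 ± 1.65 (untreated, ACM, S1P; SD, n = 4). The KO differences, 0.09 ± 0.08 for ACM and 0.12 ± 0.08 for S1P, were not called (adjusted p = 0.787 and 0.65; 0.07 and 0.10 without KO untreated 81). KO exceeded WT under S1P by 0.72 ± 0.08 (adjusted p = 1.89e-07), and the S1P interaction was 0.85 ± 0.12 (adjusted p = 5.52e-06; 0.83 without KO untreated 81). The ACM interaction of Cdkn2d, 0.28 ± 0.12, was not called (adjusted p = 0.0998). It was called with TPM scaling (adjusted p = 0.0354), limma voom (0.022), only the groups compared (0.00429) and without WT S1P 25 (0.0228). WT untreated (43.0 ± 1.32), KO S1P and KO ACM lay within their spread. KO untreated came next, below every WT untreated library (-0.12 ± 0.08, adjusted p = 0.475, exact permutation p = 0.0286), then WT ACM at 37.5 ± 1.64 and WT S1P at 25.9 ± 5.1. Of all tested genes, 9.09% had untreated KO and WT libraries that did not overlap.

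Cdkn2a was low everywhere and highest in untreated WT cells. Cdkn2a (ENSMUSG00000044303, chromosome 4, 89274471 to 89294653, minus strand) encodes p16Ink4a and, from the distal start shown above, p19Arf, which protects p53 from Mdm2. The gene-level value does not separate them. FPKM was 5.03, 3.76, 4.54 and 4.07 in WT untreated libraries, 2.95, 2.42, 2.77 and 3.41 under ACM and 2.3, 2.63, 2.6 and 1.73 under S1P, on 40 to 107 reads per library. Both treated groups lay below all untreated libraries and overlapped each other. Cdkn2a fell by 0.46 log2 units with ACM (SE 0.11, adjusted p = 0.00373) and by 0.69 with S1P (SE 0.11, adjusted p = 1.06e-05). S1P and ACM were not called apart (-0.24 ± 0.11, adjusted p = 0.084), except when WT ACM 20 was left out (adjusted p = 0.0449).

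In KO cells Cdkn2a started lower and did not change by the test. KO untreated libraries had FPKM values of 2.14, 3.51, 2.98 (KO untreated 81) and 2.75, KO ACM 2.56, 2.86, 3.12 and 3.42, and KO S1P 3.66, 3.25, 3.21 and 3.19. All KO untreated libraries were below all WT untreated ones, a difference of -0.48 ± 0.11 (adjusted p = 0.0182; -0.50 and adjusted p = 0.00903 without KO untreated 81). That call was lost when WT untreated 1 or 3 or KO untreated 79 or 82 was left out (adjusted p from 0.0527 to 0.0733). Untreated KO and WT libraries did not overlap for 9.09% of all tested genes. Treatment in KO gave 0.06 ± 0.11 for ACM and 0.18 ± 0.11 for S1P (adjusted p = 0.907 and 0.587). Under S1P the genotype order was turned, KO being 0.39 ± 0.11 above WT (adjusted p = 0.00365), and under ACM the genotypes differed by 0.04 ± 0.11 (adjusted p = 0.834). The interactions were 0.52 ± 0.15 for ACM (adjusted p = 0.0213) and 0.88 ± 0.15 for S1P (adjusted p = 7.57e-05), or 0.54 and 0.90 without KO untreated 81. By mean, WT untreated (4.35 ± 0.554) was followed by KO S1P (3.33 ± 0.224), KO ACM (2.99 ± 0.365), WT ACM (2.89 ± 0.413), KO untreated (2.85 ± 0.57) and WT S1P (2.31 ± 0.415), and from KO S1P down each step was smaller than the larger SD of its neighbours.

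The genes on either side of Cdkn2a were read alongside it. Cdkn2b, the INK4 gene that makes p15, averaged 2.9 ± 0.507 FPKM untreated, 2.23 ± 0.19 with ACM and 2.14 ± 0.35 with S1P in WT cells (SD, n = 4), and it fell with S1P by 0.31 log2 units (SE 0.10, adjusted p = 0.0142). That call was lost without WT untreated 3 or WT S1P 28 (adjusted p = 0.0719 and 0.0589). Mtap, an enzyme of methionine salvage, fell with ACM by 0.18 and with S1P by 0.17 (SE 0.04 each, adjusted p = 0.00265 and 0.000884). In KO S1P cells Cdkn2b was 3.01 ± 0.312 and Mtap 13.8 ± 0.894, with no call for either against KO untreated.

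Cdkn1a was by far the most abundant of the 6 in untreated cells and hardly moved. Cdkn1a (ENSMUSG00000023067, chromosome 17, 29090976 to 29100727, plus strand) encodes p21; it overlaps AC167363.2 on the other strand, at 0.437 to 2.71 FPKM. Its FPKM was 105, 113, 108 and 103 in WT untreated, 113, 116, 120 and 106 in WT ACM and 110, 114, 111 and 107 in WT S1P libraries, all overlapping. KO untreated libraries had 109, 100, 107 (KO untreated 81) and 107, KO ACM 104, 104, 109 and 105, and KO S1P 113, 114, 109 and 112. The WT differences were 0.08 ± 0.04 for ACM and 0.05 ± 0.04 for S1P (adjusted p = 0.11 and 0.318). The ACM value was called without WT untreated 2 or WT ACM 22 (adjusted p = 0.0474 and 0.0263) and was -0.03 after TPM scaling. In KO, ACM gave 0.00 ± 0.04 (adjusted p = 0.984) and S1P 0.08 ± 0.04 (adjusted p = 0.431, exact permutation p = 0.0286; 0.0571 without KO untreated 81). The 95% intervals of these S1P differences were -0.03 to 0.12 in WT and 0.01 to 0.16 in KO. Under ACM, KO cells had 0.11 log2 units less Cdkn1a than WT cells, a difference of -0.11 ± 0.04 (adjusted p = 0.0326, exact permutation p = 0.0571). That call was lost without WT ACM 19, 20 or 21 or KO ACM 85, 86 or 88 (adjusted p from 0.0562 to 0.128) and under 5 other settings.

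Cdkn1b was equally steady across treatments and slightly higher in KO cells. Cdkn1b (ENSMUSG00000003031, chromosome 6, 134920401 to 134925513, plus strand) encodes p27, which links growth factor withdrawal to arrest. WT libraries ranged from 13.9 to 16.6 FPKM and KO libraries from 15.4 to 17.7. Group means were 15.5 ± 0.204, 15.2 ± 0.999 and 15.4 ± 1.04 in WT (untreated, ACM, S1P) and 16.6 ± 0.717, 16.7 ± 0.964 and 17.0 ± 0.233 in KO (SD, n = 4). The KO means lay within each other's spread, as did the WT means, with every KO mean above every WT mean. Treatment differences were -0.02 ± 0.05 and 0.00 ± 0.05 in WT and 0.01 ± 0.05 and 0.03 ± 0.05 in KO (ACM, S1P), none called, with 95% intervals inside -0.12 to 0.13. KO exceeded WT by 0.13 ± 0.05 under ACM (adjusted p = 0.0463, exact permutation p = 0.0857) and by 0.13 ± 0.05 under S1P (adjusted p = 0.0228, exact permutation p = 0.0286). The ACM call was lost when any of 15 libraries was left out, namely each WT untreated or KO S1P library, WT ACM 20 or 22, KO untreated 79 or 82 and KO ACM 85, 86 or 88 (adjusted p from 0.0522 to 0.184). The S1P call was lost without WT S1P 25 or 27 or KO S1P 93 (adjusted p from 0.0549 to 0.0937) and with TPM (0.08, adjusted p = 0.318), quantile (adjusted p = 0.0604) or median scaling (adjusted p = 0.0809). The ACM call was also lost with no filter, median scaling and only the groups compared (adjusted p from 0.0716 to 0.0989). Untreated, the difference was 0.10 ± 0.05 (adjusted p = 0.297; 0.13 without KO untreated 81).

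**Figure D2:**
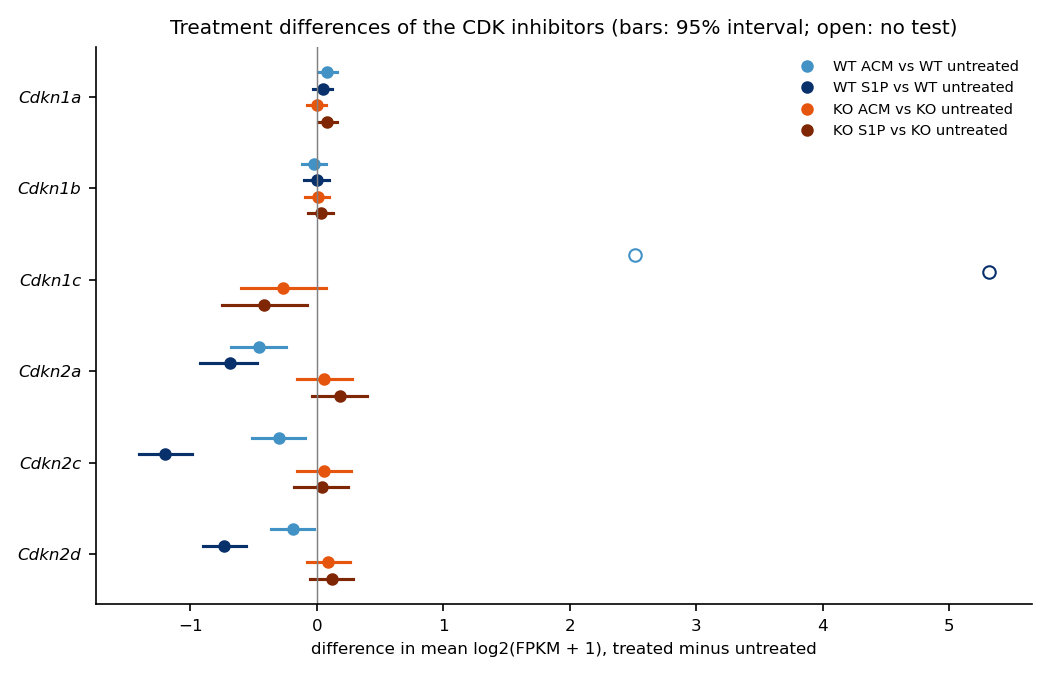
Treated minus untreated differences of mean log2(FPKM + 1) for the 6 genes in WT and KO cells, with limma 95% intervals. Open circles are the WT values of Cdkn1c, 2.52 and 5.32, shown with no interval because they chose the gene. In WT the INK4 genes lie at or below -0.19, and all KO points lie between -0.42 and 0.18.

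These counts are read against the share of all tested genes that were called in the same comparison. In WT cells with ACM, 0 of the 5 testable members were higher (12.2% of all genes) and 2 lower, Cdkn2a and Cdkn2c (9.85%). With S1P, 0 were higher (25.2%) and 3 lower, Cdkn2a, Cdkn2c and Cdkn2d (27.2%). In each of these comparisons those 3 genes had groups that did not overlap, as did 28.8% of all genes with ACM and 45.2% with S1P. The member medians were -0.19 and -0.69, beside medians of 0.00 over all genes. Against ACM, S1P gave a call for 2 of 5 members, Cdkn2c and Cdkn2d, both lower, where 41.5% of all genes were called in either direction.

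In KO cells limma called 0 of 6 members for ACM and 0 of 6 for S1P, and 0.00879% of all genes in each comparison (0.044% and 0.185% without KO untreated 81). At an unadjusted p under 0.05 the counts were 0 and 2 members, where 9.17% and 10.3% of all genes had such a p, and limma voom called 0 in each. The 2 were Cdkn1a and Cdkn1c, whose S1P libraries did not overlap the untreated ones, as for 5.66% of all genes. S1P against ACM in KO cells also gave 0 of 6 (0.0352% of all genes), with 1 at an unadjusted p under 0.05 (6.81% of all genes) and 0 by voom.

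Between genotypes, limma called 0 of 5 higher (1.26% of all genes) and 1 lower (1.21%) in untreated KO cells; without KO untreated 81 the background was 4.12% and 4.03%. Under ACM, 1 was higher (12.5%) and 1 lower (15.5%). Under S1P, 4 were higher, Cdkn1b, Cdkn2a, Cdkn2c and Cdkn2d (26.9%), and 0 lower (25.4%). Without Cdkn1b, whose call did not hold under the 3 rescalings, there were 3. The interaction was called for 1 of 5 with ACM (17.1% of all genes, 14.9% without KO untreated 81) and for 3 of 5 with S1P (41.9%, 41.6% without it).

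The make-up of the 6 transcripts shifted accordingly. Per library, FPKM summed over the 6 genes was 208 ± 5.46 untreated, 211 ± 7.53 with ACM and 263 ± 14.4 with S1P in WT cells (SD, n = 4), and 199 ± 5.81, 202 ± 5.61 and 210 ± 2.28 in the KO groups. Cdkn1c made up 0.632% ± 0.108 of the WT sum untreated, 5.82% ± 0.396 with ACM and 35.2% ± 7.44 with S1P, shares that follow from the choice of the gene, and 0.423 to 0.8% on average in KO groups. Cdkn2c and Cdkn2d went from 17.5% and 20.7% in WT untreated to 6.0% and 9.94% in WT S1P cells. Cdkn1a went from 51.6% to 42.1% at nearly the same FPKM.

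**Figure D3:**
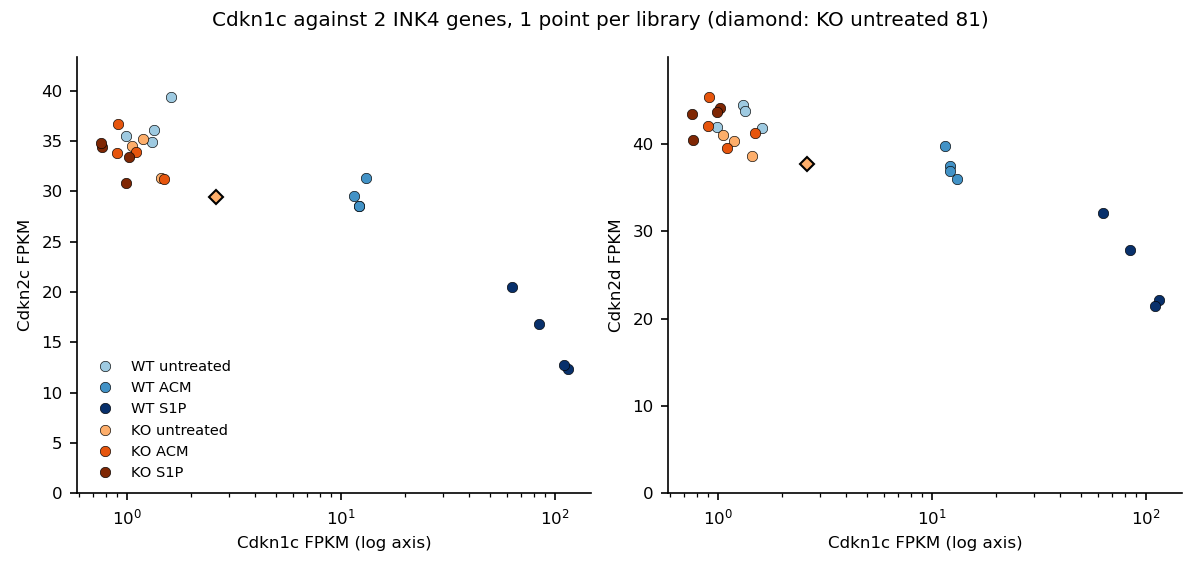
Cdkn1c FPKM (log axis) against Cdkn2c FPKM (left) and Cdkn2d FPKM (right), 1 point per library in 6 groups. The 4 WT S1P libraries, with 63.4 to 115 of Cdkn1c, hold 12.4 to 20.5 of Cdkn2c and 21.4 to 32.1 of Cdkn2d, below all other libraries.

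Across the 24 libraries, on the log2(FPKM + 1) scale, Pearson's r was 0.97 between Cdkn2c and Cdkn2d, -0.92 between Cdkn1c and Cdkn2c and -0.91 between Cdkn1c and Cdkn2d. The libraries share 6 groups and much of the spread lies between groups, so these values describe the layout seen in the plot of Cdkn1c against the INK4 genes and carry no test. Cdkn1a had r between -0.24 and 0.33 with the other members, and Cdkn1b between -0.48 and 0.33.

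Of the 12 kinases and cyclins that these inhibitors bind, 10 fell in WT cells given S1P, where 27.2% of all tested genes fell and 25.2% rose (with ACM 9.85% and 12.2%). All 7 targets of CIP/KIP proteins fell with S1P (list median -1.02), among them Ccnb2, the mitotic cyclin, at -1.49 ± 0.13, Ccna2, the S phase cyclin, at -1.24 ± 0.11 (SE), Cdk1 at -1.02 ± 0.10 and Cdk2 at -0.73 ± 0.08. ACM lowered 5 of the 7 (median -0.33). Of the 5 INK4 targets, S1P lowered Cdk4 (-0.21 ± 0.03), Ccnd3 (-0.69 ± 0.10) and Ccnd1 (-0.63 ± 0.10), while Ccnd2 was at -0.09 ± 0.08 (adjusted p = 0.352) and Cdk6, with Cdk4 the kinase that INK4 proteins bind, at -0.02 ± 0.06 (adjusted p = 0.77). With ACM 1 INK4 target rose, Ccnd2 (0.34 ± 0.08), and 1 fell, Cdk4 (-0.17 ± 0.03). Among 9 activating and tuning enzymes, S1P lowered 7, including Cdkn3, a phosphatase that acts on Cdk2, at -1.09 ± 0.10 and Cdc25b at -0.99 ± 0.10, and raised 1, Cdk7 (0.53 ± 0.09), named after its values were seen. ACM lowered 2 of the 9.

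The RB and E2F family and the replication genes, downstream of the kinases, moved the same way. S1P lowered 11 of 13 RB and E2F family genes (median -0.50), such as Tfdp1, the E2F partner, at -0.61 ± 0.04 and E2f7, a repressor of the family, at -0.98 ± 0.08, and ACM lowered 4. All 22 E2F-driven replication genes fell with S1P (median -0.90) and 13 with ACM (median -0.26), beside 0.00 over all genes. Of all tested genes, 27.2% fell with S1P and 9.85% with ACM. Mcm4, a helicase subunit, was at -1.02 ± 0.08, and Rrm1, which makes deoxynucleotides, at -1.09 ± 0.10 with S1P. Of 12 genes for the ligases that destroy CIP/KIP proteins, S1P lowered 5, among them Dtl (-0.80 ± 0.07), Skp2 (-0.52 ± 0.06) and its partner Cks1b (-0.67 ± 0.08), and raised 3. ACM lowered 2 of the 12 and raised 1. Under S1P, KO cells were higher than WT cells in 7 of 7 CIP/KIP targets and 22 of 22 replication genes, and under ACM in 1 and 2. Of all genes, 26.9% were higher in KO cells under S1P and 12.5% under ACM.

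**Figure D4:**
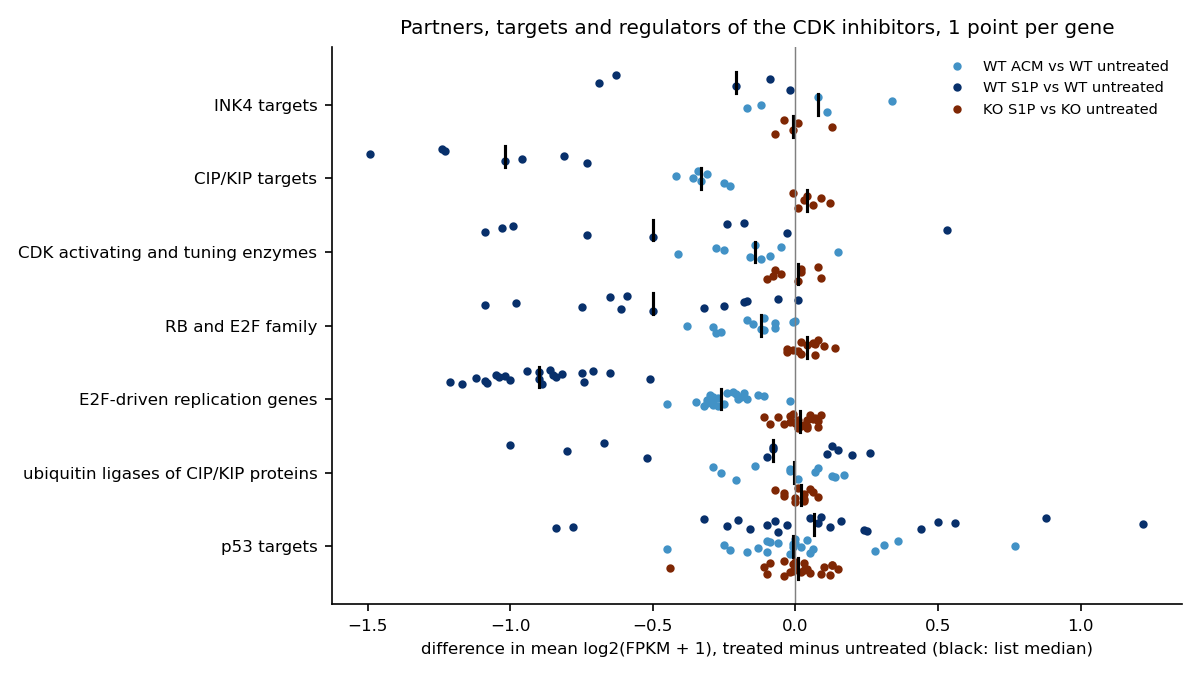
Treated minus untreated differences of mean log2(FPKM + 1) for genes of 7 pathway lists, 1 point per gene and a black line at each list's median. With S1P in WT cells the CIP/KIP targets centre on -1.02 and the replication genes on -0.90, with ACM on -0.33 and -0.26, and the KO S1P points centre near 0.

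The p53 targets, of which Cdkn1a is the best known, were called at shares near those of all genes. Of 22 tested (2 more were under an FPKM of 1 in every library), 7 rose and 5 fell with S1P in WT cells, 31.8% and 22.7% beside 25.2% and 27.2% of all genes, and 4 rose and 3 fell with ACM, 18.2% and 13.6% beside 12.2% and 9.85%. Mdm2, which degrades p53, rose by 0.56 ± 0.04, and Bbc3, a death gene, by 0.88 ± 0.09, while Sesn1 (-0.84 ± 0.07) and Psrc1 (-0.78 ± 0.08) fell. Trp53 itself was at -0.04 ± 0.04 (adjusted p = 0.4), and of 6 genes for Trp53 and its regulators, 1 rose (Mdm2) and 2 fell with each treatment; with S1P the 2 were Chek2 (-0.47 ± 0.06) and Atm (-0.40 ± 0.06). Glucocorticoid targets, tested because glucocorticoids are known inducers of Cdkn1c, moved both ways. Of 9 tested (11 listed, 1 of them under an FPKM of 1 throughout), 3 rose and 3 fell with S1P, 33.3% each beside 25.2% and 27.2% of all genes (Dusp1 0.97 ± 0.09, Klf9 1.09 ± 0.13, Fkbp5 -0.62 ± 0.08, Tsc22d3 -0.48 ± 0.07), and 3 rose and 1 fell with ACM. Of 14 factors known to regulate CDK inhibitor transcription, 5 rose and 2 fell with S1P, among them Cebpa (0.95 ± 0.09), a myeloid factor that restrains division, Bmi1 (0.56 ± 0.06) and Ezh2 (-0.82 ± 0.08), both Polycomb proteins. With ACM 2 rose and 1 fell.

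Over all these lists, 139 genes other than members were tested. In WT cells 13 rose and 40 fell with ACM, where 12.2% of all tested genes rose and 9.85% fell. With S1P 22 rose and 76 fell, where 25.2% of all genes rose and 27.2% fell. In KO cells limma called 0 of the 139 with either treatment, with or without KO untreated 81. Of all genes it called 0.00879% with each treatment, and without KO untreated 81 0.044% with ACM and 0.185% with S1P. At an unadjusted p under 0.05 there were 7 with ACM and 15 with S1P, or 5.04% and 10.8% of them beside 9.17% and 10.3% of all genes, and limma voom called 0 of the 133 it tested.

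Around Cdkn1c on chromosome 7, most genes of the imprinted domain were silent or steady. Of 21 other genes of the domain, 9 were under an FPKM of 1 in every library, and 3 of the 12 tested rose and 4 fell with S1P in WT cells, beside 25.2% and 27.2% of all genes (2 and 3 with ACM). The exception in size was the nearest neighbour, Slc22a18, a transporter gene that starts 12.7 kb from Cdkn1c and is imprinted in the same direction. In WT cells Slc22a18 averaged 1.17 ± 0.382 FPKM untreated, 1.76 ± 0.174 with ACM and 3.45 ± 0.644 with S1P (SD, n = 4), and the S1P libraries, at 2.78 to 4.24, lay above all others. It rose by 1.04 ± 0.12 with S1P (adjusted p = 3.11e-07). The ACM difference of 0.36 ± 0.12 (adjusted p = 0.0385) was not called without WT untreated 1, 3 or 4 or WT ACM 19, 20 or 22 (adjusted p from 0.0656 to 0.133). That call was also lost with voom (adjusted p = 0.0809), no filter (0.0972), TPM scaling (0.0869) and only the groups compared (0.0526). KO means were 1.64 ± 0.354, 1.27 ± 0.25 and 1.2 ± 0.204, with no call. Kcnq1, the neighbour on the other side, fell with S1P (-0.33 ± 0.07, adjusted p = 0.00068). Dhcr7, a cholesterol synthesis enzyme, fell by 0.71 and Tnfrsf23, a decoy receptor, rose by 0.42. Kcnq1ot1, the long RNA that silences the domain on the paternal copy, is named here for that role after its values were seen. Its FPKM, which is scaled for gene length, never exceeded 0.149. For a long RNA such a value does not show that reads were absent. Of 17 genes of the wider imprinted gene network, 14 were under an FPKM of 1 throughout, and S1P lowered 2 of the other 3, Igf2r (-0.24 ± 0.03) and Gatm (-0.63 ± 0.10).

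**Figure D5:**
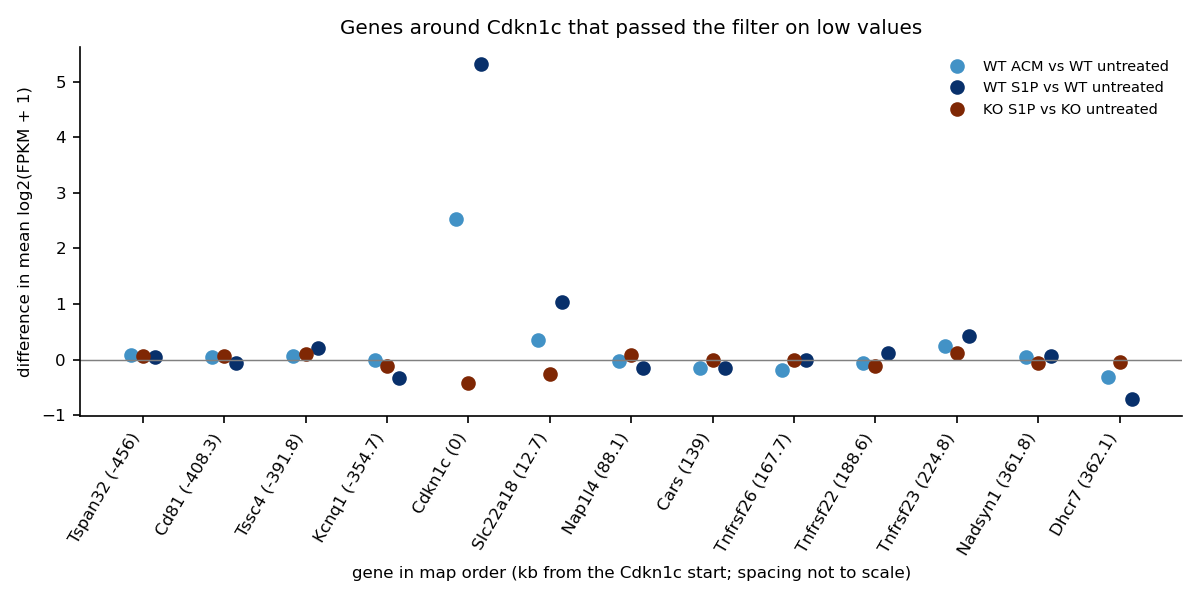
Differences of mean log2(FPKM + 1) for Cdkn1c and the 12 tested genes around it, in map order with the distance of each start from the Cdkn1c start in kb. With S1P in WT cells Cdkn1c is at 5.32, Slc22a18 at 1.04 and the others between -0.71 and 0.42.

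Among the nearest protein coding genes on each side of the members, 8 of 12 were tested. With S1P in WT cells 1 rose, Slc22a18, and 4 fell, including Srsf3 beside Cdkn1a (-0.32 ± 0.04). Of all tested genes, 25.2% rose and 27.2% fell with S1P. With ACM 1 of the 8 rose and 3 fell, where 12.2% of all genes rose and 9.85% fell.

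The genes whose levels followed Cdkn1c most closely over the 24 libraries, among 7106 compared, were Serpinb9b, a protease inhibitor (r = 0.993), Tspan13 and Procr (0.990 each) and Cox6a2 (0.989). Rnf128, Serp1, Itga5, Hid1 and Sh2d6 followed at 0.988 and Lman1 at 0.987. In WT cells Serpinb9b averaged 1.79 FPKM untreated, 6.94 with ACM and 44.3 with S1P, and it was 1.18 to 1.41 in KO groups. Cox6a2, a muscle-type respiratory subunit, went from 1.07 to 5.25 and 25.8, and was 0.789 to 0.889 in KO groups. Among the most opposite were Acat2 (r = -0.988), Fasn (-0.985), Stab1 (-0.982) and Wfdc17 (-0.981), where Acat2 and Fasn are enzymes of sterol and fatty acid synthesis. Without KO untreated 81 r was 0.988 to 0.993 for the first 10 and -0.991 to -0.984 for these 4 opposite genes. The libraries share 6 groups, so the values are a description and carry no test.

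The other members had other company. Cdkn2c was closest to Ncapd2, a condensin subunit, and Foxm1, a mitotic transcription factor (r = 0.992 each), and to Tpx2, a spindle protein (0.989). Cdkn2d was closest to Gmnn and Asf1b (0.985) and Mcm2 (0.983), genes of DNA replication and chromatin assembly. Likeness was weaker for Cdkn1b (Dock5 0.794, Tnpo2 0.773, Mmp10 0.767), Cdkn2a (Fh1 0.787, Ighm 0.785, Pros1 0.783) and Cdkn1a (Gltp 0.757, Tspo 0.719, Arf5 0.699).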

How the data were processed

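Values are FPKM (fragment counts scaled for exon length and library depth) in a table deposited by the authors, with 54532 genes and 24 libraries of mRNA enriched on oligo(dT) beads. The submitters' processing notes name the aligners STAR and HISAT2, StringTie and featureCounts, DESeq, edgeR, STAR-Fusion, and the build GRCm38 (mm10). Which tool made the values, its version and its use of strand: not given in the sources used here. GENCODE M21 named 54495 genes. Whole reads were recovered for 97.0% of genes above 0 (tolerance 0.05).

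The 11377 genes that reached an FPKM of 1 in 4 or more libraries were tested on log2(FPKM + 1) with limma 3.58.1 (R 4.3.3) as 6 group means fitted together, with the variance prior following the mean level, checked on simulated data. A gene was called where its p, Benjamini-Hochberg adjusted across all tested genes, was under 0.05, in each of 11 comparisons. Permutation tests are exact and 2-sided. An interaction is the KO treatment difference minus that in WT. Alternatives were a filter at FPKM 5 or none, pseudocount 0.1, TPM, quantile and median scaling, robust limma, limma voom, a fit on the groups compared, and leaving out each library. The text names the 6 members, up to 4 genes of each list by smallest adjusted p with S1P in WT, the nearest neighbours, and by Pearson's r the 10 genes most and 5 least like Cdkn1c (1 of the 5 is not reported here) among those with a group mean FPKM of at least 5, and 3 for each other member; a few others are named where the text turns on them. Members and lists were chosen with earlier results of these data known.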

Additional observations from a re-analysis of the deposited data

Results flagged for a closer look

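In KO S1P library 91, Cdkn2a had an FPKM of 3.66, apart from the 3.19 to 3.25 of the other 3 libraries of its group. It was the only 1 of 36 groups of member values with a library that stood apart by Dixon's test, which chance gives in about 1 of 20 groups.

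The treatment difference of 3 members differed between genotypes by the limma interaction. For Cdkn2a it was 0.52 with ACM (adjusted p = 0.0213) and 0.88 with S1P (adjusted p = 7.57e-05), for Cdkn2c 1.24 with S1P (adjusted p = 9.08e-07) and for Cdkn2d 0.85 with S1P (adjusted p = 5.52e-06). All 3 genes fell with S1P in WT cells and were not called in KO cells. Of all tested genes, 41.9% had a called S1P interaction.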

How the results depend on the processing

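No paired analysis was possible because the groups share no replicate numbers in the labels. For the 6 genes, no called log2 difference changed sign in 583 values under other settings or 1584 with 1 library left out. Uncalled or untested ones did in 12 and 16, none of them above 0.13 in size to begin with. In all, 14 and 35 lost their call, 14 and 6 gained one, and 17 of the 583, all of Cdkn1c, moved by more than the replicate SD. The count of members called in WT ACM went from 2 to 1 with no filter and with the filter at FPKM 5, where Cdkn2a was not tested, and to 3 with TPM or quantile scaling, voom and only the groups compared, where Cdkn2d was gained. In KO against WT untreated it went from 1 to 0 with that filter and with only the groups compared. In KO against WT under ACM it went from 2 to 0 with no filter, to 1 with TPM, quantile or median scaling and to 3 with voom. In KO against WT under S1P it went from 4 to 3 with the filter at 5 and with TPM, quantile or median scaling. The ACM interaction went from 1 to 0 with no filter and with the filter at 5, and to 3 with TPM scaling, voom or only the groups compared. With TPM scaling the median over all genes moved by -0.11 in WT ACM and by 0.12 in the ACM interaction, and relative to the first the Cdkn1a value of -0.03 lies above it. The causes of these changes, those with TPM scaling included, were not tested.

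Leaving out 1 library gave 1 to 3 members called in WT ACM, 0 to 1 in KO against WT untreated, 0 to 2 in KO against WT under ACM, 1 to 3 in the ACM interaction (3 without WT S1P 25), 2 to 3 in WT S1P against ACM and 3 to 4 in KO against WT under S1P. It stayed at 3 in WT S1P and in the S1P interaction, and at 0 in the 3 comparisons within KO. Of 1716 list counts, 57 moved by more than 1.5 times. Depth limits Cdkn2a (40 to 107 reads per library) and Cdkn1c outside the treated WT groups (31 to 89).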
